A study of Mnemiopsis leidyi with 40 samples.

Results

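Of the 16548 gene models counted in embryos of the ctenophore Mnemiopsis leidyi, 89 were both abundant and steady through development, and these 89 are described here. They were chosen by their own levels. Reads of neighbouring times were summed into 8 blocks (0 to 1 h, 2 to 3 h, 4 to 5 h, 5.5 to 6.5 h, 7 to 7.5 h, 8 to 9 h, 11 to 13 h and 20 h) and divided by the summed reads of all gene models, and are given as CPM, the usual scaling of read counts to a common library total. A member had at least 300 CPM in its lowest block and at most 1.6 times that level in its highest block. The members made up 0.538% of the gene models and took 23.6% of all reads in gene models over the 38 embryos of these blocks. They were 33.3% of the 267 gene models that reached 300 CPM in every block. The other 178 of those exceeded the ratio of 1.6 and took 30.8% of the reads. A further 54 gene models were as steady at 100 to 300 CPM and took 1.12%.

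Each sample was 1 whole embryo, sequenced by CEL-Seq, a method that barcodes the RNA of a sample, amplifies it by in vitro transcription and reads transcript ends. There were 20 groups, defined by developmental time alone (0, 1, 2, 3, 4, 4.5, 5, 5.5, 6, 6.5, 7, 7.5, 8, 8.5, 9, 10, 11, 12, 13 and 20 h), with 2 embryos in each. No strain, treatment or parent is given in the labels used here, and nothing says whether same-age embryos came from 1 spawning, so a p-value here reflects how far individual embryos differ, whatever the source of that difference. Replicate 1 of every time carried library index 6 and replicate 2 carried index 12, and these sets are called pool 6 and pool 12.

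The ctenophores, or comb jellies, are an early-branching group of animals. Their embryos start from maternal RNA stored in the egg, cleave in a fixed pattern, gastrulate and form a swimming larva with rows of fused cilia. A transcript can hold its share of the RNA pool over such a period because maternal copies persist or because new copies replace them, and counts alone do not separate these routes. In animal embryos the most abundant messenger RNAs often encode the translation machinery, the cytoskeleton and proteins of energy metabolism. The deposited table does not pair its IDs with names, and 0 of the 16548 IDs matched a RefSeq gene table of the species, so the members are given by ID, with no role and no sequence. CPM is a share of the reads, so a steady member held a steady share, and the number of its molecules per embryo was not measured. In whole embryos, fewer cells of a type and less RNA per cell cannot be told apart.

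The embryos used to choose the members held 264033 to 4511124 reads in gene models. The shallowest were 5.5 h replicate 2 (264033 reads), 8.5 h replicate 2 (343202) and 4 h replicate 1 (580587). Replicate 1 of 10 h held 3808 reads, where 3 reads correspond to 788 CPM, and both 10 h embryos stayed out of the choice. The fewest reads of any member in any of the 38 embryos was 13, for ML06575a in 8.5 h replicate 2. Replicate 2 of 8.5 h also stood apart in the order of the members. Its Spearman correlation with the members' median levels, across genes, was 0.858, against 0.943 or more in each of the other 37 embryos.

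The members covered a wide range of levels. Their lowest-block levels ran over 27.6-fold, with 26 members at 3000 CPM or more, 28 from 1000 to 3000 CPM and 35 under 1000 CPM. The 10 most read members took 32.0% of all member reads, and the 30 most read took 68.4%. Highest was ML148534a, with block levels of 8325, 8332, 10862, 11465, 12330, 12436, 10690 and 10774 CPM in order of time. Its earliest blocks were the lowest, and its later blocks stayed closer to the top level. ML02402a had 8590 CPM at 0 to 1 h, 11317 CPM at 5.5 to 6.5 h and 7261 CPM at 20 h, so its highest block lay in the middle. ML00976a ran from 7281 CPM at 0 to 1 h through 9592 CPM at 7 to 7.5 h to 7187 CPM at 20 h. ML148532a ran from 6880 CPM at 0 to 1 h through 9334 CPM at 5.5 to 6.5 h to 7589 CPM at 20 h, and ML01776a ended at 5965 CPM after 9014 CPM at 5.5 to 6.5 h. These 3 shared the shape of ML02402a, with the ends of the series lower than the middle.

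The flattest member was ML051212a, also among the 6 most abundant. Its block levels were 5849, 6936, 6266, 6788, 6982, 6656, 6134 and 6919 CPM, a highest-over-lowest ratio of 1.19. The next were ML17595a, with a ratio of 1.24 (653 CPM at 7 to 7.5 h and 811 CPM at 20 h), and ML001110a, also at 1.24 (334 CPM at 7 to 7.5 h and 415 CPM at 0 to 1 h). Unlike the abundant members just described, this pair was lowest in the middle of the series. ML03315a had a ratio of 1.29, ML053618a of 1.30 and ML21315a of 1.30, and these 3 were again highest in the middle. Over all members the ratio had a median of 1.48. The rule fixed the upper end, so these ratios are a description.

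The thresholds passed through a continuous range of values. Just inside 300 CPM were ML02115a (301.8 CPM in its lowest block) and ML21405a (304.4 CPM), and just outside were ML271532a (299.6 CPM) and ML276921a (298.3 CPM). Just inside the ratio were ML14985a (1.597) and ML06455a (1.597), and just outside were ML051912a (1.602) and ML015714a (1.605). The genes nearest each limit lay on both sides of it with closely similar values.

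On the scale of summed reads, most members shared 1 shape inside the allowed range. A block's level also follows the number of reads each pool gave to it. The highest block was 5.5 to 6.5 h for 33 members, 7 to 7.5 h for 26, 8 to 9 h for 10 and 4 to 5 h for 3. It was 0 to 1 h for 8, 20 h for 5, 2 to 3 h for 3 and 11 to 13 h for 1. The lowest block lay at the ends for most: 0 to 1 h for 27, 20 h for 20, 2 to 3 h for 19 and 11 to 13 h for 15. For 71 members the highest block lay within 4 to 9 h and the lowest outside it. This count was 52 of the 54 members at 1000 CPM or more and 19 of the 35 members under 1000 CPM. Among the other 18, ML270535a went from 1003 CPM at 0 to 1 h to 643 CPM at 7 to 7.5 h, and ML01915a went from 307 CPM at 11 to 13 h to 462 CPM at 20 h. ML003225a went from 510 CPM at 0 to 1 h to 798 CPM at 11 to 13 h. These 3 were picked after their values were seen, to show the range of shapes.

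**Figure D1:**
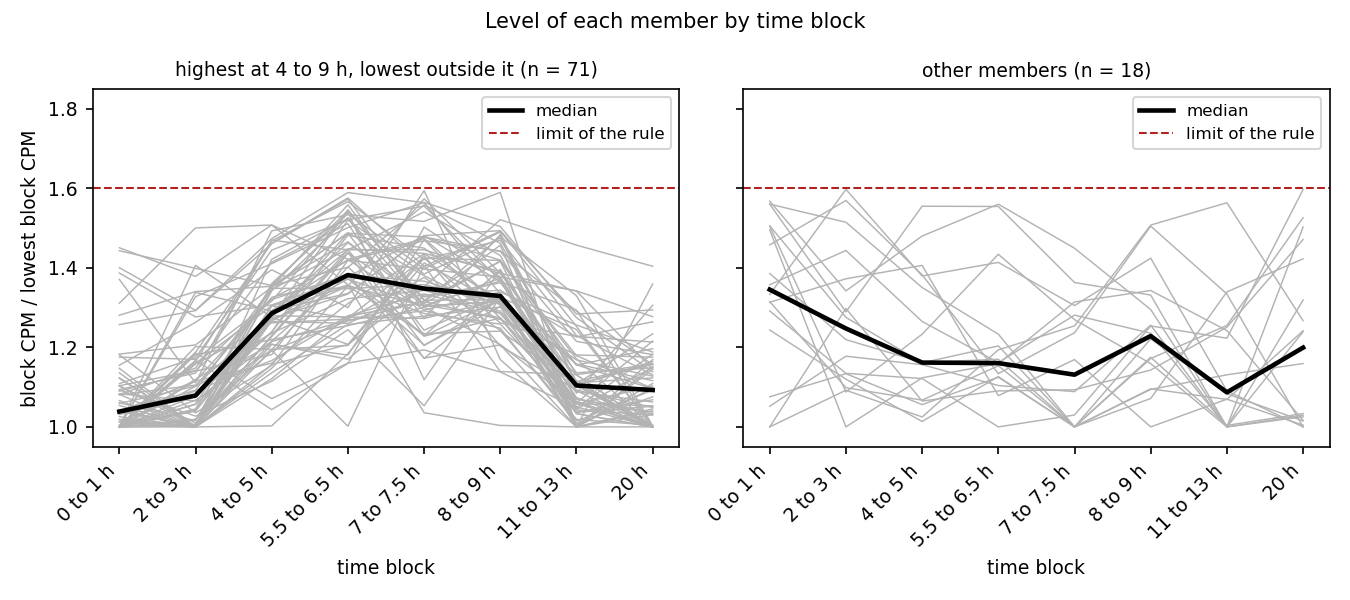
Block level of each of the 89 members divided by its own lowest block (vertical axis, no unit), over the 8 time blocks (horizontal axis). Grey lines are single members, the black line is the median, and the dashed line is the limit of 1.6; the 71 members on the left are highest within 4 to 9 h and lowest outside it, the 18 on the right are not.

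Summed over the members, the same shape appeared as a share of the reads. The 89 members took 20.6% of gene reads at 0 to 1 h, 21.3% at 2 to 3 h, 24.7% at 4 to 5 h and 26.5% at 5.5 to 6.5 h. They then took 25.8% at 7 to 7.5 h, 25.8% at 8 to 9 h, 21.6% at 11 to 13 h and 21.5% at 20 h. In pool 6 alone the share was 17.4% at 0 to 1 h, 22.9% at 5.5 to 6.5 h and 20.0% at 20 h, and in pool 12 alone it was 23.7%, 31.8% and 23.0%. Pool 6 was highest at 8 to 9 h (23.5%) and pool 12 at 5.5 to 6.5 h (31.8%). The blocks of 4 to 9 h did not all stand above the others. Pool 12 had 27.4% at 2 to 3 h and 27.1% at 7 to 7.5 h. Pool 6 had 19.5% at 4 to 5 h, below its 20.0% at 20 h. With 1 pool at a time, 70 of the 89 members were highest within 4 to 9 h in pool 6 and 64 in pool 12. Unlike the count of the shape above, these numbers do not ask where the lowest block lay. No such count was made for other genes. The abundant genes past the ratio are given by single embryo, not by block. In pool 6 they took 29.0% at 0 h, 32.3% at 2 h, 29.8% at 7 h, at most 34.7% (7.5 h) and 26.2% at 20 h. In pool 12 they took 31.0% at 0 h, 29.6% at 4 h, 29.4% at 4.5 h, at most 34.5% (7 h) and 27.0% at 20 h. Their highest embryo in each pool thus also lay within 4 to 9 h, but some embryos of that span lay below earlier ones. Since the members were selected on these same block sums, none of this was tested.

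The rule did not compare the pools, since each block sums both. The sums follow read depth, so the pools weighed unequally in a block and their difference could enter its level. Replicates 1 and 2 held 3212300 and 1625319 reads at 2 h, and 1384763 and 4511124 reads at 7 h. The summed share was higher in the pool 12 embryo at 19 of 19 times. The ratio of the shares was lowest at 8.5 h (24.9% against 22.9%, ratio 1.09) and highest at 2 h (29.0% against 16.4%, ratio 1.78), with a median of 1.34. The embryo with the highest share was 6.5 h replicate 2, at 34.5%, and the lowest was 2 h replicate 1, at 16.4%. The embryos of 2 h thus lay further apart than any pair of block shares.

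**Figure D2:**
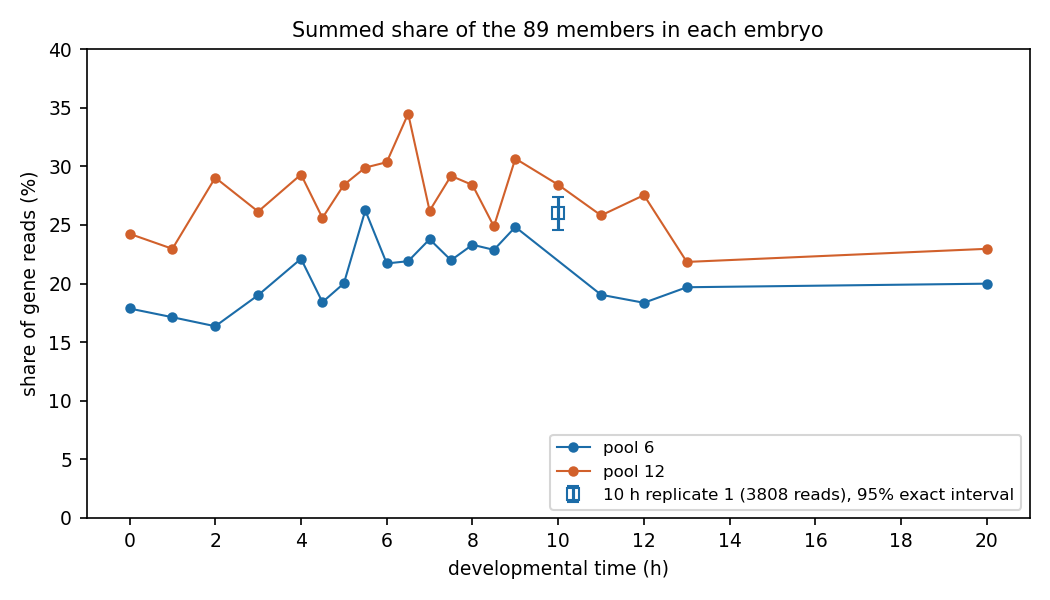
Summed share of the 89 members among all reads in gene models (vertical axis, percent) in each embryo by developmental time (horizontal axis, hours), with pool 6 in blue and pool 12 in orange. The open square is 10 h replicate 1 with its exact 95% interval; at the other 19 times the pool 12 embryo lies above the pool 6 embryo.

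Gene by gene, 70 of the 89 members (78.7%) differed between the pools at equal age, by edgeR's quasi-likelihood test with time as a factor and Benjamini-Hochberg adjustment over 9576 genes at 0.05. Of all genes tested, 14.3% did. Higher in pool 12 were 65 members (73.0%), against 4.75% of all genes tested, and lower were 5 members (5.62%), against 9.60%. Among all genes tested, calls were thus more often lower in pool 12, and among the members they were more often higher. The median log2 fold change, pool 12 minus pool 6, was 0.52 over the members and -0.01 over all genes tested. These fits were scaled by TMM, which sets the bulk of the genes equal between libraries. Scaled by total counts instead, 47 members passed as higher and 12 as lower, and the share of higher calls was 79.7% in place of 92.9%. Under that scaling the median over all genes moved to -0.21 and that over the members to 0.33, and 178 genes were called higher and 1443 lower.

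The calls between the pools varied with the level of the members. All 26 members at 3000 CPM or more were higher in pool 12, with log2 fold changes from 0.27 to 0.95. Of the 28 from 1000 to 3000 CPM, 23 were higher, 1 was lower and 4 were not called. Of the 35 under 1000 CPM, 16 were higher, 4 were lower and 15 were not called. Among the 178 abundant genes past the ratio, 66 were called higher (37.1%) and 28 lower (15.7%), and among the 54 steady genes of 100 to 300 CPM, 14 were called higher and 14 lower. No test compared these classes with each other.

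ML03315a had the smallest adjusted p among the members. Its 19 embryos of pool 6 ran from 2607 CPM over a median of 3443 to 4448 CPM, and its 19 embryos of pool 12 from 4443 CPM over 6041 to 7408 CPM. The ranges of the pools met only at their ends. Its log2 fold change was 0.95 ± 0.09 (SE), with an adjusted p of 1.73e-07 by edgeR's quasi-likelihood test, and it was higher in pool 12 at 19 of 19 times. This member was among the 6 flattest over the blocks, so a small change over time went with a large step between pools.

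ML148534a, the most abundant member, had 9095 ± 1446 CPM in pool 6 and 12800 ± 2211 CPM in pool 12 (SD, n = 19 each). The lowest, median and highest embryos were 6421, 9067 and 11549 CPM in pool 6 and 9186, 12680 and 18394 CPM in pool 12. The pools overlapped, and the pool 12 embryo was the higher one at 19 of 19 times. Its log2 fold change was 0.68 ± 0.07 (edgeR adjusted p = 3.08e-07).

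ML001916a showed the largest fold change among the 10 members with the smallest adjusted p, at 1.08 ± 0.11 on the log2 scale (edgeR adjusted p = 2.79e-07). Its pool 6 embryos ran from 875 CPM over 1237 to 1656 CPM and its pool 12 embryos from 1597 CPM over 2126 to 6439 CPM. The ranges overlapped narrowly, and the top value came from 8.5 h replicate 2. ML00985a was higher by 0.89 ± 0.09, ML019148a by 0.92 ± 0.10 and ML021138a by 0.79 ± 0.09 on the log2 scale, each at 19 of 19 times. ML04795a was higher by 0.84 ± 0.10 at 19 of 19 times. ML04144a (0.95 ± 0.11), ML03028a (0.73 ± 0.09) and ML173716a (0.76 ± 0.09) were higher at 18 of 19 times each. The edgeR adjusted p of these 7 lay between 2.79e-07 and 2.46e-06.

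The 5 members called lower in pool 12 are named because they are few, after their values were seen. ML01122a had the largest difference of any member. Its embryos ran from 473 CPM over a median of 674 to 864 CPM in pool 6 and from 38.1 CPM over 219 to 544 CPM in pool 12. It was the lower one in pool 12 at 19 of 19 times, and its pool 12 values at 0, 1, 2, 3, 4 and 4.5 h were 102.6, 178, 38.1, 107, 112 and 216 CPM. At 5, 5.5, 6 and 6.5 h they were 363, 178, 113 and 98.2 CPM. From 7 h on they lay between 219 and 544 CPM, with the highest at 20 h. Its pool 6 values were 746 CPM at 0 h and 641 CPM at 20 h, so the pools lay closest at the end of the series. The log2 fold change between the pools was -1.46 ± 0.21 (edgeR adjusted p = 2.40e-05).

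The other members lower in pool 12 were ML003225a, ML07306a, ML052910a and ML116925a. ML003225a had 812 ± 164 CPM in pool 6 and 425 ± 187 CPM in pool 12 (SD, n = 19 each), a log2 fold change of -0.85 ± 0.13. ML116925a, ML052910a and ML07306a changed by -0.63 ± 0.16, -0.59 ± 0.17 and -0.59 ± 0.13. Each of these 4 was lower in pool 12 at 18 of 19 times, with edgeR adjusted p from 3.27e-05 to 0.0143. ML052910a was the only 1 of the 5 called lower with 1000 CPM or more in its lowest block.

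ML17595a, among the flattest members over the blocks, was also the narrowest over single embryos. It ran from 549 CPM in 7.5 h replicate 2 over a median of 694 to 938 CPM in 7 h replicate 1, a 1.71-fold range over 38 embryos. Its log2 fold change between the pools was -0.06 ± 0.08 and was not called (edgeR adjusted p = 0.763). Scaled by total counts it was -0.24 and was called. On the CPM scale its means were 775 ± 81.5 in pool 6 and 655 ± 71.1 in pool 12 (SD, n = 19 each), so the answer for this gene depended on the scaling. ML001110a, not called either at -0.26 ± 0.10 (edgeR adjusted p = 0.103), was likewise called at -0.44 by total counts. ML21315a, just inside the call at 0.27 ± 0.09 (edgeR adjusted p = 0.0444), was not called by total counts (0.08) or in 28 of the 39 fits that left out 1 embryo.

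**Figure D3:**
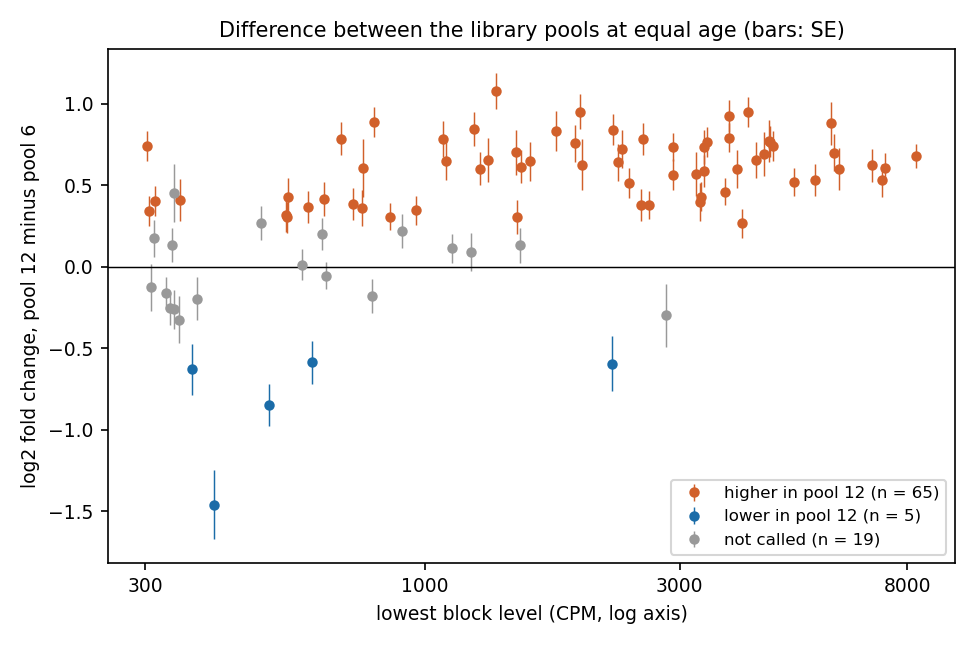
Log2 fold change of pool 12 minus pool 6 at equal age (vertical axis, bars are SE) against the level of the lowest block (horizontal axis, CPM, log axis) for the 89 members. Orange points were called higher in pool 12 (65), blue points lower (5) and grey points were not called (19); every member from 3000 CPM upward lies above 0.

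Other properties of the libraries also differed between the pools. Reads outside gene models were a median of 35.8% of aligned reads in pool 6 and 30.2% in pool 12. Reads ambiguous between gene models were 2.82% and 3.69% of all reads, and unaligned reads were 49.4% and 48.7%. The median embryo had 10224 gene models with a read in pool 6 and 9228 in pool 12, and 1665525 and 1867403 gene reads. Their part in the pool difference was not tested. A pool is defined here by its index, and index and replicate number coincide in these libraries and cannot be told apart.

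Single embryos spread further than the blocks. The highest embryo was 1.71 to 25.2 times the lowest over the members, with a median of 2.96, and 0 of 89 members stayed within 1.6-fold over all 38 embryos. For 83 members the range exceeded 2-fold and for 43 it exceeded 3-fold. With both embryos of a time summed, the range over the 19 times had a median of 1.71, and 25 members stayed within 1.6-fold. Without 8.5 h replicate 2 the median range was 2.67, with 80 members over 2-fold and 27 over 3-fold. That embryo was the lowest for 24 members and the highest for 16. Replicate 2 of 6.5 h was the highest for 27 members, and 2 h replicate 1 was the lowest for 21.

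The members of the widest ranges and the single members named for the 10 h and within-block results (ML03873a and ML02234a) were picked after their values were seen. ML06575a had the widest range, from 37.9 CPM in 8.5 h replicate 2 to 954 CPM in 5.5 h replicate 2, both shallow libraries. Its pool 6 embryos ran from 243 to 464 CPM, and its median over all 38 embryos was 422 CPM. ML01504a was also lowest in 8.5 h replicate 2, at 128 CPM against a median of 887 CPM, and highest in 4 h replicate 2 at 1482 CPM. ML01122a, described above, had the second widest range at 22.6-fold. It was lowest in 2 h replicate 2, a library of 1625319 reads, and highest in 3 h replicate 1.

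**Figure D4:**
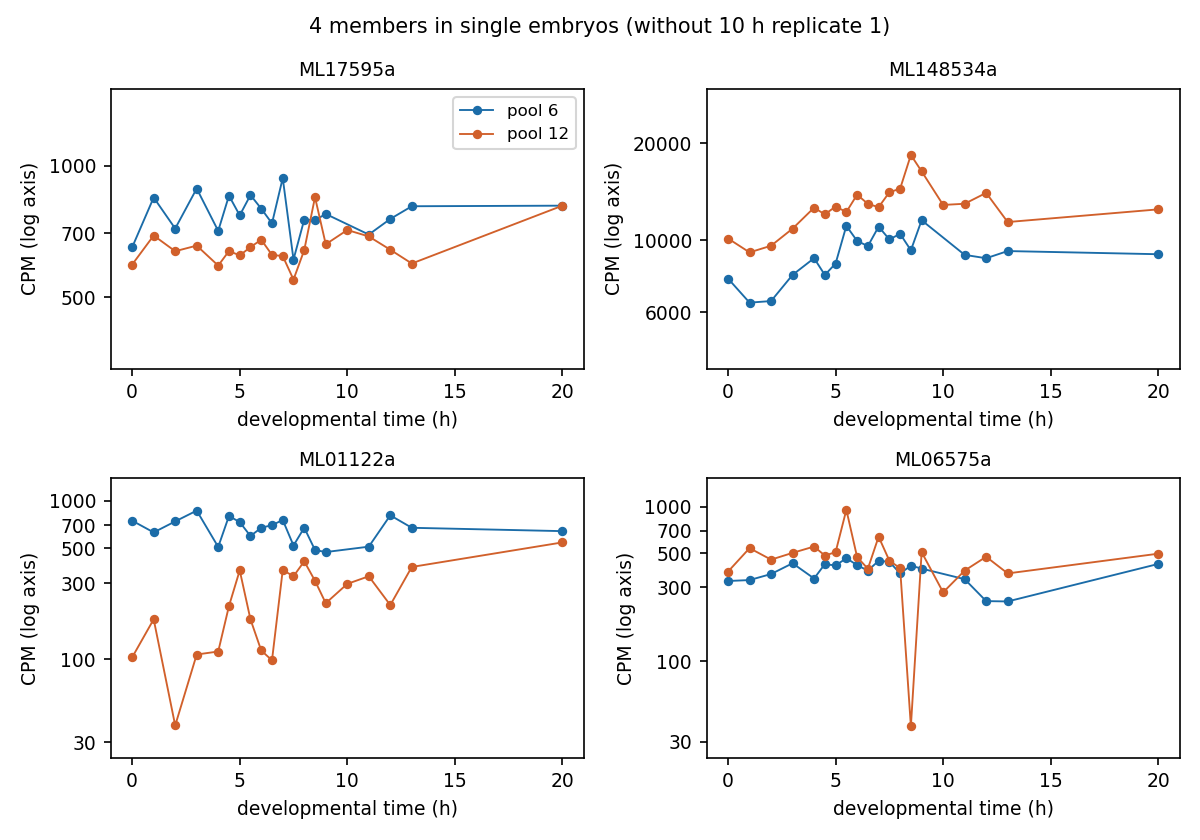
Level of 4 members in single embryos (vertical axes, CPM, log axes) by developmental time (horizontal axes, hours), with pool 6 in blue and pool 12 in orange and without 10 h replicate 1. ML17595a spans 1.71-fold over the 38 embryos used by the rule, ML148534a lies higher in pool 12 throughout, ML01122a lies lower in pool 12, and ML06575a has 1 value of 37.9 CPM at 8.5 h.

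Between any 2 of the 38 embryos, the Spearman correlation of the levels across the 89 members was 0.808 to 0.995, with a median of 0.969. These are correlations across genes that are not independent replicates, and the rule, which allows each member a far narrower range than that between members, fixed most of this likeness. Same-age embryos differed by a median of 1.37-fold per member, against 1.54-fold over all genes tested and 1.32-fold for the abundant genes past the ratio. Around each gene's own pool offset the median was 1.15-fold for members, 1.21-fold for the abundant genes past the ratio and 1.44-fold for all genes tested. The median coefficient of biological variation in the edgeR fit was 0.355 for members with time alone and 0.241 with time and pool, against 0.493 and 0.453 over all genes tested. For the abundant genes past the ratio these medians were 0.338 and 0.262, and for the steady genes of 100 to 300 CPM 0.318 and 0.268. With time alone the members' median was thus above those of both classes, and with time and pool it was slightly below them. No test compared the classes.

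The rule also did not compare the times inside a block. The quasi-likelihood F test of edgeR called 0 of the 89 members and 0 of the 9576 genes (0%) at an adjusted p below 0.05. At an unadjusted p below 0.05 there were 0 members and 357 genes (3.73%), and the smallest unadjusted member p of this F test was 0.215, for ML02234a. In the same fit 0 of the 178 abundant genes past the ratio lay below 0.05 unadjusted. The same held for 0 of the 54 steady genes of 100 to 300 CPM, so this count was not particular to the members. That fit held time alone, so the pool difference counted as spread between embryos. With the pool as a block, the edgeR F test had 0 members and 487 genes below 0.05 unadjusted. The smallest member p was then 0.072. DESeq2 called 0 members and 79 genes. Contrasts of the first against the last time of each of the 7 blocks with more than 1 time called 0 members and 16 genes (0.167%). Unadjusted, 2 members were below 0.05, both at 4 to 5 h, against 12.9% of all genes in that block. The test of all genes also made no calls, so the members' count of 0 does not set them apart from other genes.

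The 10 h embryos were held out of the rule. In 10 h replicate 2, of 1928630 reads, the members took 28.4% of the reads, beside 30.7% in 9 h replicate 2 and 25.8% in 11 h replicate 2 of the same pool. Against the mean of those embryos on the log2 CPM scale, the members differed by a median of 0.01, from -0.77 to 0.68. For the other genes compared next, 1 CPM was added before the logarithm. Within 1.6-fold of that mean were 86 of 89 members (96.6%), 156 of 178 abundant genes past the ratio (87.6%) and 59.7% of all genes tested. Within the range of their own 8 blocks were 40 members, with 37 above and 12 below it. These counts set a pool 12 embryo against blocks that sum both pools, and most members were higher in pool 12. Time and pool cannot be told apart in them, and no such count was made for other genes. The edgeR test of 10 h against the mean of 9 and 11 h called 0 members and 0 of all genes (0%). Unadjusted, it had 0 members and 488 genes below 0.05, and DESeq2 called 0 members and 2 genes. In this fit 10 h replicate 2 stood alone and was assumed to vary like the other embryos. The fit sets an embryo of pool 12 against both pools, and the median member log2 fold change was 0.28, or 0.08 with the pool as a block.

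**Figure D5:**
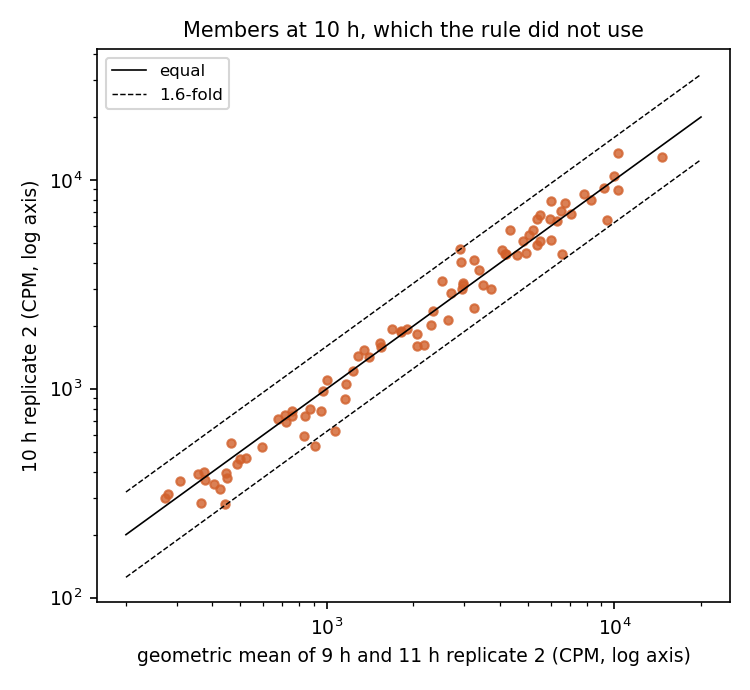
Level of the 89 members in 10 h replicate 2 (vertical axis, CPM, log axis) against the geometric mean of 9 h and 11 h replicate 2 (horizontal axis, CPM, log axis). The solid line marks equal levels and the dashed lines 1.6-fold; 86 members lie between the dashed lines.

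In 10 h replicate 1 the members took 990 of 3808 reads, or 26.0% (exact Clopper-Pearson 95% interval 24.6% to 27.4%, counting error only). The interval held the 24.8% of 9 h replicate 1 and lay above the 19.0% of 11 h replicate 1, the embryos of its pool. There, 8 members had 0 reads, with an exact 95% interval of 0 to 968 CPM. For 88 members the exact interval met the range of the other embryos. The exception was ML03873a, with 80 reads or 21008 CPM (exact 95% interval 16693 to 26079 CPM), against 2366 to 9486 CPM in the 38 embryos of the blocks and 6900 CPM in 10 h replicate 2.

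How many genes met the rule depended on the scaling of the reads. With TMM-scaled block sums 55 genes met it, 48 of them members, and with DESeq2's size factors 45 did, 15 of them members. With TMM scaling the members' own ratios had a median of 1.59 and a highest value of 1.87. With each block level taken as the mean of its embryos' CPM, 81 genes met it, 71 of them members. In pool 6 alone 82 genes met the rule, 61 of them members, and in pool 12 alone 52 did, 44 of them members. Both pools alone were met by 32 genes, 31 of which were members. Many members were thus within 1.6-fold on the scale of summed reads and not on another scale or in 1 pool. With a limit of 1.4 or 2 in place of 1.6, 24 and 165 genes met the rule.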

How the data were processed

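The authors deposited whole-number counts of reads per gene model and embryo. Per the submitters' processing notes, CASAVA 1.8, Bowtie2 2.1.0 and HTSeq 0.5.4p3 were used. For the genome build, the annotation, the strand setting and the merging of molecular identifiers, nothing is given in the labels or headers; counts are therefore treated as reads, intervals cover counting error only, and genes with close copies or overlapping neighbours are uncertain. The 5 totals that name no gene were left out of library sizes. Of these, the report gives medians for each pool only for reads outside gene models, ambiguous reads and unaligned reads. The index numbers and lanes come from the authors' sample sheet, and pool is the name given here to an index number. The 2 lanes of an embryo are summed in the deposited counts.

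The members and lists were chosen with earlier results of these data known. CPM was computed from total gene counts. Tests used edgeR 4.0.16 (R 4.3.3): filterByExpr with the 20 times as groups and a count minimum of 10 (9576 genes, all 89 members among them), TMM scaling, and 39 embryos without 10 h replicate 1. The pool contrast had time and pool as factors, the other tests time alone; standard errors are the log2 fold change over the square root of F. Fits that left out 1 embryo kept the trend of the dispersion. DESeq2 1.42.0 was an alternative. The edgeR pool contrast and within-block F test were tried on simulated data, and the other fits were not. Named genes were the 6 most abundant, the 6 with the smallest ratio, 2 on each side of both limits and up to 10 called members in each test by adjusted p; others are said to be chosen after their values were seen.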

Additional observations from a re-analysis of the deposited data

Results flagged for a closer look

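Of 168 sets of 4 to 6 embryos tested (the embryos of a block, for a named member or for the summed share of the members), 8 held an embryo far from the others by Dixon's criterion, which chance alone meets in about 1 set in 20. In 8.5 h replicate 2, a library of 343202 reads, 5 members stood far above the other embryos of 8 to 9 h. ML001916a was at 6439 CPM (others 1350 to 2727), ML04144a at 7235 CPM (others 2241 to 3216) and ML03028a at 7177 CPM (others 3094 to 4556). ML173716a was at 10609 CPM (others 3547 to 4799) and ML02402a at 18412 CPM (others 8338 to 11301). The other flags fell in 3 different embryos. ML051212a was at 9526 CPM in 9 h replicate 2 (others 5814 to 6767), ML21315a at 6168 CPM in 5.5 h replicate 1 (others 4499 to 4984), and ML06455a at 158 CPM in 4 h replicate 2 (others 396 to 469).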

How the results depend on the processing

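The number of genes meeting the rule was 89, and 55 with TMM-scaled sums, 45 with DESeq2 size factors, 24 and 165 with a ratio of 1.4 and 2, 52 in pool 12 alone, and 69 (without 6.5 h replicate 1) to 95 (without 6.5 h replicate 2) with 1 embryo left out. The within-block test called 0 members under every alternative run; over all genes it called 512 without a filter, 79 with DESeq2, and 0 to 14 with 1 embryo left out (14 without 5 h replicate 1). The pool test called 12 members lower with total counts; with 1 embryo left out it called 64 to 71 members, 59 to 66 higher and 5 lower, and 1161 to 1486 genes. The 10 h test called 0 members under every alternative run, and 22 genes without a filter and 2 with DESeq2. The library pool as a replicate block left both tests at 0 calls. Without 8.5 h replicate 2, added after seeing the data, 27 in place of 43 members spanned over 3-fold between embryos. Of the named genes' pool values under all alternatives, 1022 stayed on their side of the threshold, 33 lost a call (ML21315a and ML21405a), 3 gained one (ML001110a, ML06455a and ML17595a, with total counts), and 0 called values changed direction. In 10 h replicate 1, 3 reads correspond to 788 CPM, which limits what that library can show.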
